A study of Homo sapiens with 24 samples.

Results

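The experiment described here tested overexpression of the microRNA miR-125b in retinoic acid (RA)-treated SH-SY5Y cells, a human neuroblastoma line that takes on neuron-like features under RA. Its members are 6 of the 24 arrays of the series, chosen by their titles: 3 arrays titled RA+ OE D2 (RA, OE, day 2) and 3 titled RA+ SCR D2 (RA, scrambled control, day 2). Both groups received RA and were collected on day 2, so RA itself is not part of the difference between them. OE is read here as overexpression. No label spells it out, and for these samples DP stands where the title has OE. The labels' growth protocol concerns reagents other than those of the titles, so how the miRNA was delivered, at what RA dose, and from how many separate cultures is not known here. P-values therefore measure the spread between arrays, which may be technical. Each array gave 1 Illumina bead intensity for each of 20589 probes, and no probe ID was matched to a gene by the tables used here, so probes are reported by ID. The other arrays used for comparison came from OE and scrambled cells without RA on day 2 and on day 4, and from KD (knockdown of miR-125b) and OE+KD cells with RA on day 2, with 3 arrays in each group.

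A miRNA guides the silencing complex to messenger RNAs that pair with its seed, the stretch near the 5′ end that carries most of the recognition, and lowers their stability and translation. The miR-125 family is abundant in neural tissue, and the series asked what miR-125b does as neuroblastoma cells differentiate. Its mature strand is shown because it is the agent of the comparison, in RefSeq sequence with bases 2 to 8, the seed, in capitals, beside that of miR-125a.

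hsa-miR-125b-5p: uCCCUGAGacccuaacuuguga

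hsa-miR-125a-5p: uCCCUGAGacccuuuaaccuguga

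In GRCh38.p14 the mature miR-125b-5p sequence stands at chr11:122099809-122099830 on the minus strand, in MIR125B1, and at chr21:16590253-16590274 on the plus strand, in MIR125B2. Both loci give the same 22 bases, and the miR-125a-5p sequence of MIR125A on chromosome 19 shares the seed CCCUGAG. The arrays did not yield a level of miR-125b here, so the label OE was not checked against the miRNA itself.

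Mean scanner intensity ran from 659.2 to 934.3 on the 6 arrays. With 3 arrays a group, precision is limited by their number. One of them stood apart. Replicate 2 of the OE group with RA had a residual SD of 0.225 log2 in the model of all groups, against 0.0740 to 0.161 log2 on the other 23 arrays. Of the 10691 probes tested, 1466 (13.7%) lay more than 0.5 log2 from the mean of the other 2 OE arrays on that array, 749 above and 717 below. The same count was 437 for OE replicate 1 and 189 for OE replicate 3, against 33, 35 and 5 for the scrambled arrays with RA. For OE replicates 1 and 3 the mean they are set against includes replicate 2, which adds to their counts. Across probes, OE replicates 1 and 3 had r = 0.994 with each other, and 0.978 and 0.982 with replicate 2. Over the 21 arrays outside the OE group with RA, the count of probes more than 0.5 log2 away ran from 3 to 288. The deviation of replicate 2 was not limited to dim probes, with an SD of 0.29 log2 in the dimmest of 3 equal groups of tested probes by mean level, 0.36 in the middle group and 0.36 in the brightest. The counts of calls and the named probes are therefore given with and without this array.

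**Figure D1:**
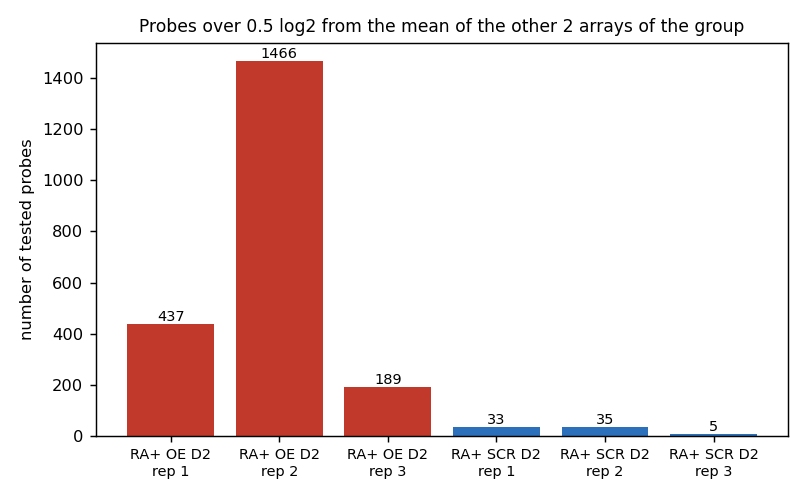
Number of tested probes (vertical axis, from 0) that lay more than 0.5 log2 from the mean of the other 2 arrays of the same group, for the 3 OE arrays (red) and the 3 scrambled arrays (blue) with RA on day 2. OE replicate 2 stood at 1466 probes, against 437 and 189 for the other OE arrays and 5 to 35 for the scrambled arrays. The other OE arrays are set against means that include replicate 2.

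The first question was which transcripts differed between OE and scrambled cells when both were under RA. A difference was called at 4242 probes (39.7% of those tested), of which 2119 were higher in OE (19.8%) and 2123 lower (19.9%), by limma with Benjamini-Hochberg adjusted p under 0.05. Most changes were small, with a median size of 0.43 log2 among the called probes. At least 2-fold, 87 probes were higher (0.814%) and 118 lower (1.1%). The 205 probes of both directions (1.92%) became 544 with no background correction and 536 in the authors' normalized intensities. The 6 arrays did not overlap between the groups at 4615 probes (43.2%), 2306 with OE higher and 2309 with OE lower. Without OE replicate 2, 3073 and 2958 did not overlap, a count that fewer arrays make larger. The 3 replicate numbers of the titles each gave the called direction at 2070 of the 2119 higher and 2071 of the 2123 lower probes. The calls were made on these same arrays, so this count follows from the choice and is no separate evidence.

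Calls were spread over the range of signal. In the dimmest of the 3 groups of probes by level, 33.5% were called, 584 higher and 609 lower. The middle group had 44.0% called, 796 higher and 770 lower, and the brightest 41.6%, 739 higher and 744 lower. Changes of at least 2-fold were fewer in the dimmest group, 10 higher and 13 lower, than in the brightest, 41 higher and 53 lower. Folds of dim probes depend on the background correction, and these counts by level hold for the offset of 50. With an offset of 16 the 205 probes at least 2-fold changed became 277. Without OE replicate 2 the calls were 538 higher and 544 lower in the dimmest group, 719 and 690 in the middle one, and 701 and 630 in the brightest. The 243 tested probes that passed the signal filter on all OE arrays but not on all scrambled arrays, and the 354 for which the reverse held, had to lean one way. Of the 9622 that passed in both groups, 1937 were higher and 1917 lower in OE. This even split goes with the quantile normalization and is not a result: over all tested probes, median scaling gave 1953 higher and 1656 lower, and the authors' normalized intensities gave 1820 higher and 2175 lower.

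**Figure D2:**
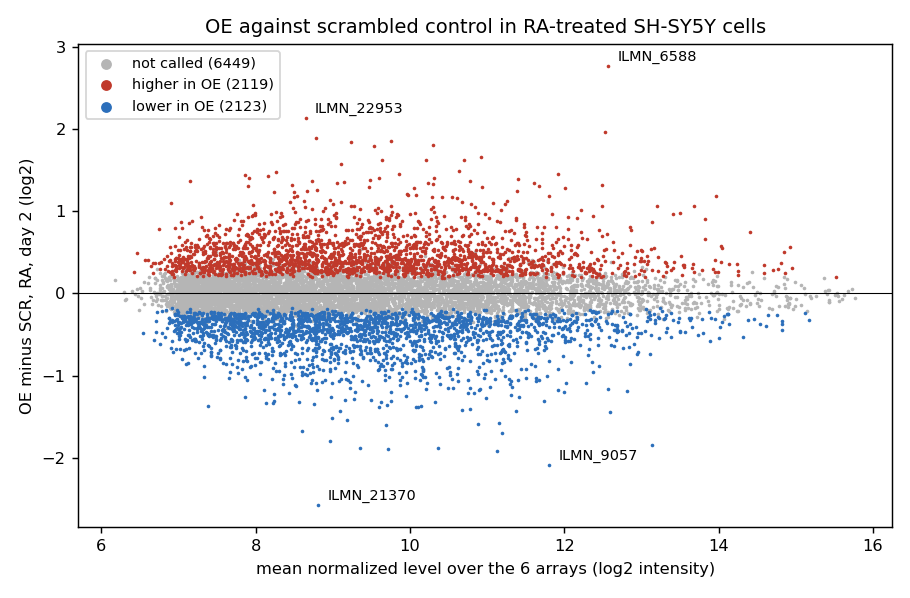
OE minus scrambled in RA-treated cells on day 2 (vertical axis, log2) against the mean normalized level over the 6 arrays (horizontal axis, log2 intensity), 1 point for each of the 10691 tested probes. Red points were called higher in OE (2119), blue points lower (2123), and the 4 labelled probes had the largest changes by the naming rule.

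ILMN_6588 had the largest rise. Its normalized log2 levels were 14.06, 14.04 and 13.77 in the OE arrays with RA, against 11.26, 11.11 and 11.20 in the scrambled arrays with RA. All OE arrays lay above all scrambled arrays, and replicate 2 was not apart from the others. OE minus scrambled was 2.77 log2 (SE 0.09, 6.81-fold, limma adjusted p = 9.83e-18), and 2.73 log2 without OE replicate 2. This probe averaged 12.86 ± 0.15 in OE+KD and 11.62 ± 0.04 in KD arrays with RA (SD, n = 3 each). Those 2 means lie between the OE and scrambled means with RA, with KD the nearer to scrambled.

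The second rise, at ILMN_22953, was less even. Its levels were 9.55, 10.13 and 9.47 in the OE arrays with RA, against 7.44, 7.64 and 7.67 in the scrambled arrays. Replicate 2 was the highest OE array by over 0.5 log2, and the groups did not overlap with or without it. OE minus scrambled was 2.13 log2 (SE 0.13, 4.38-fold, limma adjusted p = 2.06e-12), and 1.92 log2 without OE replicate 2. The SE pools the spread of all groups, while the SD of the OE arrays with RA was 0.36 log2. The scrambled arrays were dim at this probe, and the change was 2.72 log2 with no background correction and 2.66 log2 in the authors' normalized intensities. This probe was also high where KD was labelled, at 9.24 ± 0.14 in KD and 9.44 ± 0.05 in OE+KD arrays with RA, against 7.58 ± 0.12 in scrambled arrays (SD, n = 3 each). KD and OE arrays thus lay on the same side of scrambled for this probe.

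ILMN_21370 had the largest fall. Its levels were 7.72, 7.46 and 7.40 in the OE arrays with RA, against 10.09, 10.04 and 10.17 in the scrambled arrays. The groups did not overlap, and replicate 2 was the middle OE array. OE minus scrambled was -2.57 log2 (SE 0.09, 5.95-fold, limma adjusted p = 3.19e-17), and -2.54 log2 without OE replicate 2. The OE arrays were dim here, and the change was -3.24 log2 with no background correction and -3.31 log2 in the authors' normalized intensities, so its size depends on the correction. Its means were 8.39 ± 0.05 in OE+KD and 9.19 ± 0.11 in KD arrays with RA (SD, n = 3 each), both below the scrambled mean of 10.10 ± 0.06.

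At ILMN_9057, the second fall, the levels were 10.97, 10.29 and 11.02 in the OE arrays with RA, against 12.94, 12.72 and 12.89 in the scrambled arrays. Replicate 2 was the lowest OE array by over 0.5 log2, and the groups did not overlap. OE minus scrambled was -2.09 log2 (SE 0.14, 4.26-fold, limma adjusted p = 1.84e-11), and -1.85 log2 without OE replicate 2. This SE pools the spread of all groups, and the OE arrays with RA varied more here, with an SD of 0.41. OE+KD arrays stood at 11.91 ± 0.07 and KD arrays at 12.27 ± 0.11, against 12.85 ± 0.11 in scrambled arrays (SD, n = 3 each). Comparisons with the KD and OE+KD groups share the OE or the scrambled arrays with RA, so these levels are given without a test.

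**Figure D3:**
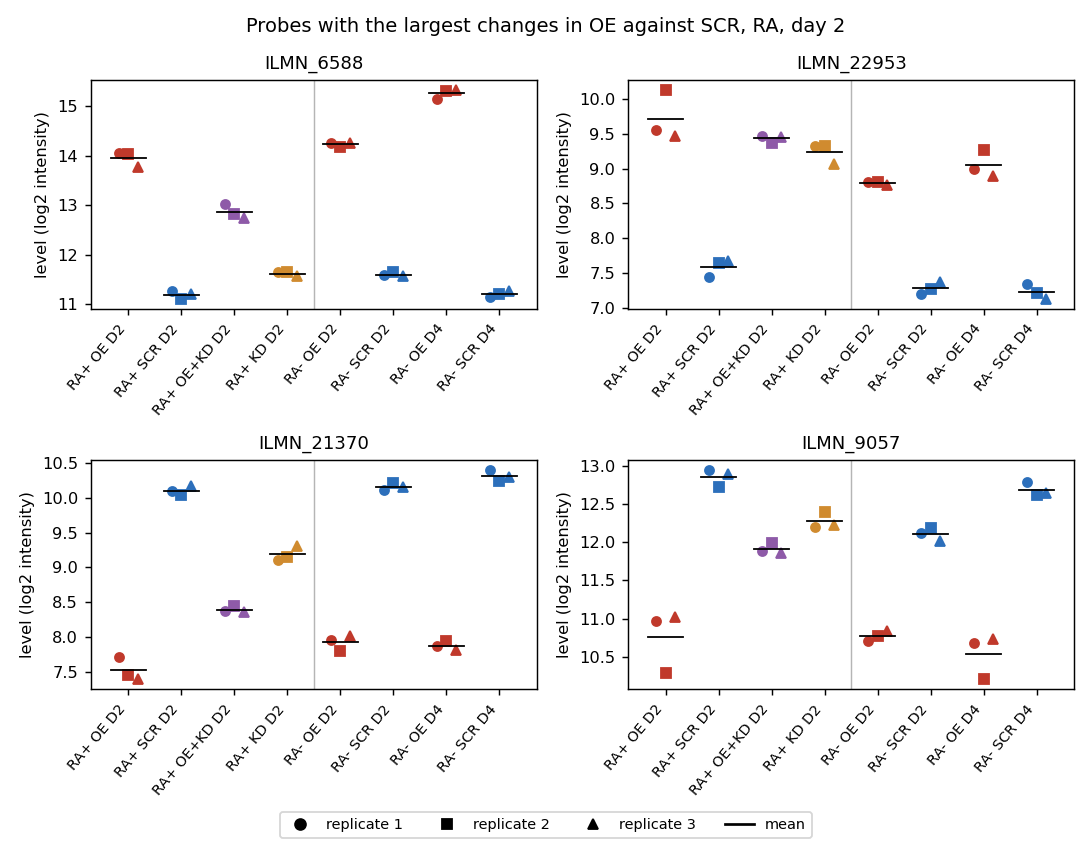
Normalized level (vertical axes, log2 intensity) of the 2 probes that rose most and the 2 that fell most in OE against scrambled with RA, in all 24 arrays by group. Points are arrays, their shape gives the replicate number, horizontal bars are means of 3, and the grey line parts groups with RA (left) from those without (right). In each panel the OE arrays with RA stand apart from the scrambled arrays with RA, and replicate 2 stands off from the other OE arrays at ILMN_22953 and ILMN_9057.

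The 15 largest rises and 15 largest falls that met the naming rule were all called with and without OE replicate 2, which the rule required. Their changes ran from 1.47 to 2.77 log2 for the rises and from -1.52 to -2.57 log2 for the falls. Without that array the ranges were 1.25 to 2.73 and -1.33 to -2.54 log2. Mean levels of the 15 risen probes were 9.005 to 13.96 in OE and 7.53 to 11.54 in scrambled arrays with RA. Those of the 15 fallen probes were 7.53 to 12.22 in OE and 9.44 to 14.06 in scrambled arrays with RA. All of these means lay above the array median of 7.08, some of them by little, and the folds of such probes depend on the background correction.

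Without OE replicate 2, 3822 probes were called (35.7%), 1958 higher (18.3%) and 1864 lower (17.4%). Of the 4242 probes called with all arrays, 78.9% were called in the same direction without it, and 87.5% of the probes called without it were among the 4242. No probe was called in opposite directions by the 2 fits. The 896 probes called with all arrays but not without replicate 2 all kept the sign of their change, with a median size of 0.31 log2 with all arrays and 0.21 without it. Another 476 were called without that array alone, with a median size of 0.31 log2. For comparison, 88.3% of the calls were shared when OE replicate 1 was left out and 88.7% when OE replicate 3 was left out. All 205 probes called and changed at least 2-fold with all arrays were also called in the same direction without replicate 2, and 162 of them stayed at least 2-fold. Without replicate 2, 182 probes were called and at least 2-fold changed. Large changes shrank too, with a median over the 15 risen probes of 1.60 log2 without replicate 2 and 1.80 log2 with all arrays, and of -1.66 and -1.79 log2 over the 15 fallen ones. These probes were chosen by values that include replicate 2, which favours such shrinkage. Without OE replicate 3 the medians of the risen and fallen probes were 1.81 and -1.88 log2.

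The model took its spread from all 24 arrays, and the OE group with RA, with replicate 2 in it, varied more than the other groups. The small adjusted p-values of the named probes rest on this shared spread. When the 6 arrays were fitted on their own, 1334 probes were called higher and 1347 lower. In that fit the limma adjusted p was 3.73e-06 for ILMN_6588 and 6.19e-05 for ILMN_22953. It was 4.39e-06 for ILMN_21370 and 9.54e-05 for ILMN_9057. On the remaining 5 arrays, without OE replicate 2, the counts were 1873 and 1789. That last fit was chosen after the data were seen.

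Whether replicate 2 carried the same response was read at probes chosen on other arrays, those called in OE against scrambled without RA on day 2. At the 1668 probes raised there, the median of the OE array minus the scrambled mean with RA was 0.42 log2 for replicate 1, 0.41 for replicate 2 and 0.41 for replicate 3. At the 1691 probes lowered there it was -0.44, -0.46 and -0.44 log2. The median over all tested probes was between -0.01 and 0.01 log2 on each array. The medians of the 3 arrays were thus close, while the agreement by probe was lower for replicate 2: 88.1% of the raised set lay above the scrambled mean on it, against 97.5% on each of the other 2 arrays. For the lowered set 90.1% lay below on replicate 2, against 96.4% on replicate 1 and 97.8% on replicate 3. These differences share the 3 scrambled arrays and are given as a description.

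The authors' deposited table has a log2 fold-change column for this comparison, and it did not use all 3 OE arrays. Every combination of OE and scrambled replicates was tried on the authors' normalized intensities, 49 in all. Exactly 1 gave the column of the authors' deposited table at all 20589 probes within 0.001 log2, the mean log2 value of OE replicates 1 and 2 minus that of scrambled replicates 1, 2 and 3. OE replicate 3 did not enter it, and replicate 2 carried the same weight as replicate 1. In that column of the authors' deposited table, at all probes, 355 were at least 2-fold higher and 367 at least 2-fold lower. The same intensities averaged over 3 OE arrays gave 249 and 320, and over OE replicates 1 and 3 gave 204 and 342. Of the 355 higher probes of the authors' deposited table, 172 were also at least 2-fold higher with OE replicates 1 and 3, and of the 367 lower ones, 261 were. For ILMN_22953 the authors' deposited table gives 2.78 log2, where the mean over OE replicates 1 and 3 in the authors' intensities was 2.43. At ILMN_9057 the authors' deposited table gives -2.34 log2, against -1.97. The authors' deposited table gives 2.81 log2 for ILMN_6588, against 2.71, and -3.16 log2 for ILMN_21370, against -3.29.

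The next question was whether the probes that OE changed with RA also changed without it. OE against scrambled without RA shares no array with the comparison under RA. Over all tested probes 15.6% were called higher and 15.8% lower without RA on day 2, and 26.2% and 25.3% on day 4. Agreement, counted as a call in the same direction without RA, rose with the size of the change under RA. Small changes are harder to call, so this rise does not show that they were shared less. Of the 87 probes at least 2-fold higher with RA, 86 were also called higher without RA on day 2 and 86 on day 4, and of the 118 at least 2-fold lower, 113 were called lower on each day. In the next class, changes of 0.5 to 1 log2 (1.41- to 2-fold), 519 of 677 higher probes (76.7%) and 608 of 699 lower probes (87.0%) were called in the same direction on day 2. Below that, 686 of 1355 higher (50.6%) and 610 of 1306 lower probes (46.7%) were. In this smallest class only 3 of the higher and 3 of the lower probes were called in the opposite direction on day 2. Its median changes were 0.35 and -0.35 log2 with RA, and 0.26 and -0.24 log2 without RA on day 2. Restricted to probes also called without OE replicate 2, the day 2 shares in the smallest class were 62.7% for higher and 62.0% for lower probes, and 81.1% and 88.3% in the middle class. In all, 2125 of the 4242 probes were called in the same direction under RA and on both days without it, and 2307 of the 3822 called without OE replicate 2 were.

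Sizes under RA were somewhat larger than on day 2 without RA, as a choice by the RA values favours. The probes at least 2-fold higher with RA had a median change of 1.24 log2 with RA, 1.01 without RA on day 2 and 1.01 on day 4. The probes at least 2-fold lower had medians of -1.16, -1.03 and -0.99 log2. Over all tested probes, which no value chose by its size, the OE effect had an SD of 0.37 log2 with RA (0.35 without OE replicate 2), 0.33 without RA on day 2 and 0.45 on day 4. Median changes over all tested probes were 0.00 log2 with RA and 0.01 on each day without it. The 4 probes named above also changed less on day 2 without RA. ILMN_6588 changed by 2.63 log2 without RA on day 2 and 4.06 on day 4, and ILMN_22953 by 1.51 and 1.82. ILMN_21370 changed by -2.23 log2 on day 2 and -2.43 on day 4, and ILMN_9057 by -1.33 and -2.14. The effect with RA minus that without it on day 2 was 0.14, 0.62, -0.35 and -0.76 log2 at these 4 probes in this order, and its test called none of them (limma adjusted p = 0.809, 0.149, 0.380 and 0.0863).

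Among the 205 probes at least 2-fold changed with RA, 4 were called on neither day without RA, all of them lower in OE with RA. They are ILMN_23980, ILMN_28662, ILMN_27300 and ILMN_25867, named after their values were seen. OE minus scrambled with RA was between -1.92 and -1.05 log2 at these 4. For the first 3, all 4 group means without RA lay under the array median, so a fall in OE could be missed there. ILMN_25867 averaged 7.36 in OE and 8.41 in scrambled arrays with RA, and 7.15 in OE and 7.45 in scrambled arrays without RA on day 2.

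A difference of the OE effect between RA and no RA on day 2 was called at 79 probes (0.739%), 50 with a more positive effect under RA (0.468%) and 29 with a more negative one (0.271%). Without OE replicate 2 with RA it was called at 58 probes (0.543%), 39 and 19, and 50 probes were called in both. At 32 of the 79 the effects had the same sign and were larger under RA, at 15 the same sign and smaller, and at 32 opposite signs, which the choice by a large difference favours. Over all 10691 tested probes these numbers were 5137, 3405 and 2149. As the choice favours opposite signs, the shares among the 79 cannot be set against these. Both signs were called on their own at 10 of these 32. Both groups without RA lay under the array median at 7 of the 79, and both groups with RA at 6, against 262 and 254 of all tested probes. At such probes an effect on the dim side could be missed, so the difference does not show that OE acted differently. With median scaling, 34 of 44 called differences were positive. The count depended on single arrays. It was 73 and 99 without OE replicates 1 and 3 with RA, 39, 46 and 48 without scrambled replicates 1, 2 and 3 with RA, 46, 41 and 34 without OE replicates 1, 2 and 3 without RA, and 44, 40 and 44 without scrambled replicates 1, 2 and 3 without RA. Other processing settings gave 35 to 156.

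**Figure D4:**
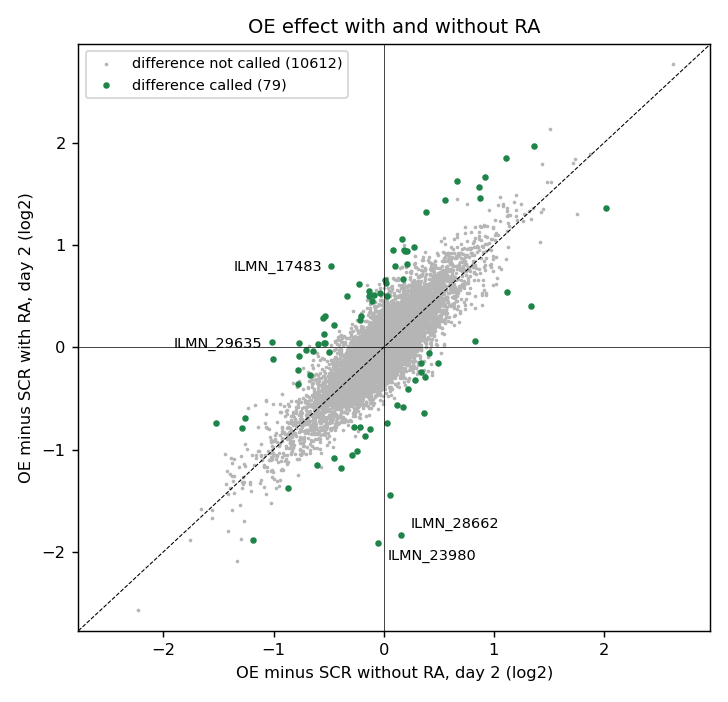
OE minus scrambled with RA (vertical axis, log2) against OE minus scrambled without RA (horizontal axis, log2), both on day 2, 1 point for each tested probe, with a dashed line where the effects are equal. Green points mark the 79 probes whose difference was called, and the 4 labelled probes have the largest differences by the naming rule. ILMN_28662 and ILMN_23980 lie near 0 on the horizontal axis and near -1.9 on the vertical one.

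ILMN_17483 had the largest positive difference and changed in opposite directions. With RA its levels were 9.77, 10.03 and 9.94 in the OE arrays, against 8.999, 9.15 and 9.19 in the scrambled arrays. Without RA on day 2 they were 9.37, 9.46 and 9.02 in the OE arrays, against 9.76, 9.79 and 9.72 in the scrambled arrays. OE was thus above scrambled in all arrays with RA, by 0.80 log2 (limma adjusted p = 2.97e-07). In all arrays without RA on day 2 it was below, at -0.48 log2 (limma adjusted p = 0.000361). The difference was 1.27 log2 (SE 0.13, limma adjusted p = 2.70e-06), and 1.22 without OE replicate 2 with RA. On day 4 without RA, OE minus scrambled was 0.70 log2, the same sign as with RA on day 2. KD and OE+KD arrays with RA averaged 9.61 ± 0.03 and 9.70 ± 0.04 (SD, n = 3 each).

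The second positive difference, at ILMN_29635, came from a fall without RA and low levels with it. Without RA on day 2 its levels were 6.57, 6.79 and 6.60 in the OE arrays, against 7.70, 7.61 and 7.70 in the scrambled arrays. With RA they were 6.56, 6.48 and 6.41 in the OE arrays, against 6.39, 6.31 and 6.61 in the scrambled arrays, all under the array median of 7.08. The groups with RA overlapped, and no OE effect was called there at this low signal (0.05 log2, limma adjusted p = 0.772). The difference was 1.07 log2 (SE 0.18, limma adjusted p = 0.00245), 1.07 without OE replicate 2 with RA, and 2.33 with no background correction.

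ILMN_28662 and ILMN_23980 had the largest negative differences and were high under RA. ILMN_28662 stood at 12.32, 12.04 and 12.29 in the OE arrays with RA, against 14.10, 14.06 and 14.01 in the scrambled arrays with RA. OE minus scrambled was -1.84 log2 with RA (limma adjusted p = 1.81e-11). Without RA on day 2 its levels were 6.60, 6.30 and 6.79 in the OE arrays, against 6.40, 6.17 and 6.63 in the scrambled arrays. Both groups were at the low end there, so a fall by OE could not be read. The computed difference was -2.001 log2 (SE 0.17, limma adjusted p = 9.42e-08), and -1.91 without OE replicate 2. Its OE+KD mean with RA was 13.34 ± 0.10 and its KD mean 13.82 ± 0.04, against 14.06 ± 0.05 in scrambled arrays (SD, n = 3 each).

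ILMN_23980 had levels of 10.29, 9.96 and 10.28 in the OE arrays with RA, against 12.30, 11.93 and 12.04 in the scrambled arrays with RA. The groups did not overlap, and OE minus scrambled was -1.92 log2 (SE 0.12, 3.77-fold, limma adjusted p = 3.69e-12). Without RA on day 2 it stood at 6.29, 6.07 and 6.44 in the OE arrays, against 6.41, 6.19 and 6.35 in the scrambled arrays. Both groups were at the low end, so here too no fall could be read without RA. The computed difference was -1.87 log2 (SE 0.16, limma adjusted p = 9.42e-08), and -1.76 without OE replicate 2. OE+KD and KD arrays with RA averaged 11.30 ± 0.11 and 11.37 ± 0.19 (SD, n = 3 each), between the OE and scrambled means with RA.

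**Figure D5:**
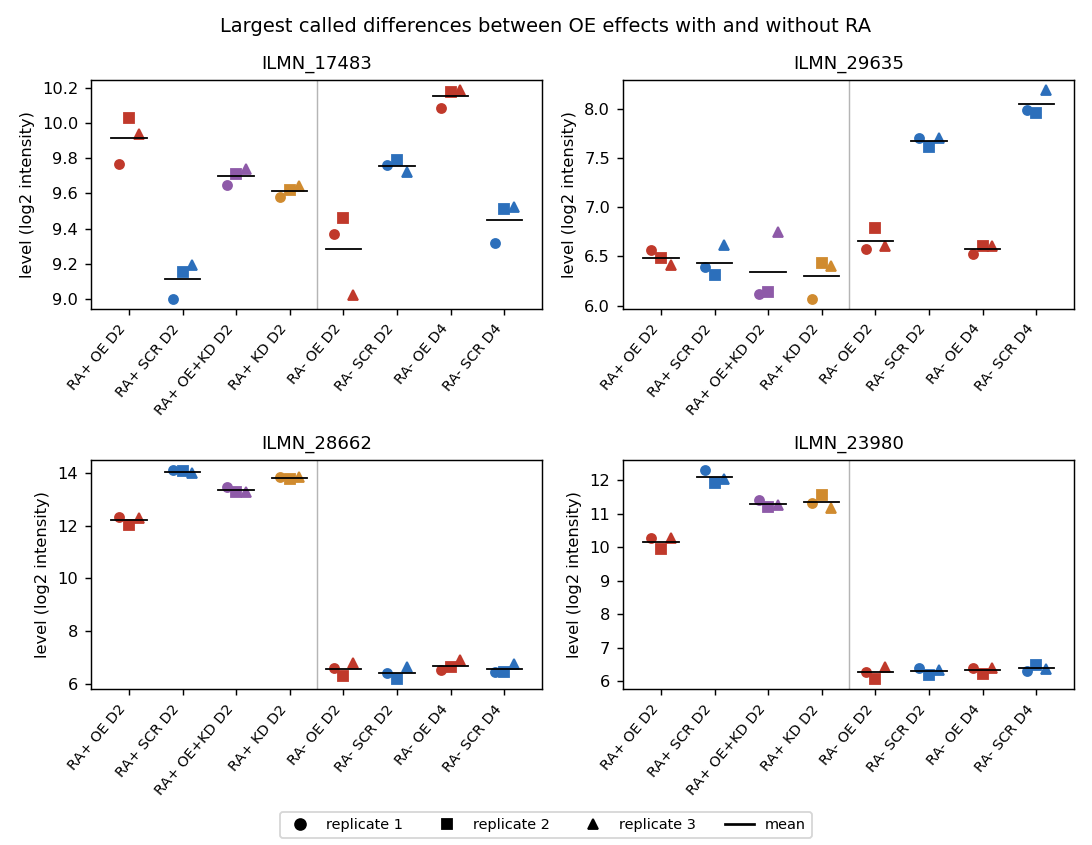
Normalized level (vertical axes, log2 intensity) of the 4 probes with the largest called differences between the OE effects under RA and in its absence, in all 24 arrays by group, with symbols by replicate number and bars for means of 3. ILMN_17483 is higher in OE than in scrambled arrays with RA and lower without RA on day 2, ILMN_29635 is low in all groups with RA, and ILMN_28662 and ILMN_23980 are low in all groups without RA.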

How the data were processed

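The authors deposited a table of scanner intensity values per probe and array. Negative values, 14.3% to 17.3% on the 6 arrays, show that a background had been subtracted. A second table deposited by the authors holds normalized intensity values, by a method that no source used here names. One more gives the authors' log2 fold changes, log2 per the file headers. From the scanner intensities, normexp correction (offset 50), quantile normalization and log2 were computed with limma 3.58.1 in R 4.3.3. A probe was tested when above its array's median on all 3 arrays of at least 1 of the 8 groups, which kept 10691 (51.9%). All 24 arrays entered 1 model of group means (lmFit and eBayes), which left 16 degrees of freedom, and p-values were adjusted by Benjamini-Hochberg over the probes tested. Calls were made at an adjusted p under 0.05. The procedure was tested on simulated data with independent noise of the same spread on every array. That test does not cover a noisy array or an effect of the replicate number. Figures were drawn with Python 3.11.15 and matplotlib 3.10.9.

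Named probes were those with the largest change among called probes that did not overlap between groups and were also called without OE replicate 2, with the first 2 of each direction printed. Differences of the OE effect were named likewise, without the overlap condition. The members, lists and tests were chosen with earlier results of these data known. Gene lists and a check of cell-type markers were not run, as 0 of the 20589 probe IDs matched the reference table. Arrays of the same replicate number deviated together between the OE and scrambled groups with RA (r = 0.298, 0.367 and 0.143 across probes for numbers 1, 2 and 3), so the titles' numbers were taken to pair them. The main fit did not use this pairing, and only the fit with a replicate block did. The alternatives were other background corrections, median scaling, the authors' normalized intensities, other filters, array weights, fewer groups in the model, the replicate number as a block and each array left out in turn.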

Additional observations from a re-analysis of the deposited data

Results flagged for a closer look

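On day 2, 79 probes had a called difference between the OE effect under RA and the one in its absence, by a test of the difference itself (limma, adjusted p under 0.05). The 4 probes named for this difference are ILMN_17483 at 1.27 log2, ILMN_29635 at 1.07 log2, ILMN_28662 at -2.001 log2 and ILMN_23980 at -1.87 log2, each as the effect with RA minus the effect without RA. At 3 of these 4 probes, both groups of one condition lay under the array median. An effect there could be missed, so the difference does not show that OE acted differently. At ILMN_17483 no group did.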

How the results depend on the processing

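The count of 4242 probes called in OE against scrambled with RA was 2681 when only the groups compared were fitted, and it stayed within 1.5 times under the other 15 settings, between 3509 and 4288 when 1 array was left out. The replicate block gave 4842. The number called and at least 2-fold changed, 205, was 544 with no background correction (intensities floored at 16) and 536 in the authors' normalized intensities, and 182 to 244 with 1 array left out. The 2125 probes called in the same direction with RA and on both days without it numbered 1614 to 2742 over 27 settings.

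The 79 differences between the OE effects with and without RA were 43 with no background correction, 48 with an offset of 16, 44 with median scaling, 49 in the authors' normalized intensities, 41 with no filter, 35 when only the groups compared were fitted, 156 with array weights and 122 with the replicate block. With 1 array left out they numbered 34 to 99. With median scaling 77.3% of them were positive, against 63.3%. The OE arrays with and without RA on day 2 had r = 0.175, 0.236 and 0.007 across probes for numbers 1, 2 and 3. Number 3 had the largest share of negative scanner values in every group, 17.3% in OE with RA and 17.1% in OE without RA on day 2. The 1 low r does not settle whether the numbers pair all groups. The 8 named changes and differences kept their direction and their call under every setting that tested them, with ILMN_29635 not tested under the stricter filter. What caused these shifts was not tested.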

Other observations

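Of the probes called higher in OE with RA, 1490 were also called higher without RA on day 4 (70.3% of 2119) and 71 were called lower. Of those called lower with RA, 1496 were also called lower on day 4 (70.5% of 2123) and 33 were called higher. On day 2 without RA, 6 of the higher and 4 of the lower probes were called in the opposite direction. ILMN_17483 is 1 of these on day 2 and has the same sign as with RA on day 4. The difference between OE with RA on day 2 and OE without RA on day 4 was not tested.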
